A study of Mus musculus with 4 samples.

Results

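The receptors that bring T cells into lymph nodes, place them there and let them leave again were followed as 9 genes chosen by name, Ccr7, Cxcr4, S1pr1, S1pr4, Gpr183, Ccr9, Cxcr3, Cxcr5 and Ccr6, out of 50600 gene rows. Each symbol matched exactly 1 row. RNA was sequenced in 4 libraries of C57BL/6NJ mouse primary cells labelled T-helper 17, a class of CD4 T cells that makes interleukin 17. Per the labels they are biological replicates 1 to 4, with separate biosample records but a single donor record, and no treatment, age, sex or control is given. The names of the alignments carry an hour tag of 0 in all 4 libraries, and the labels link to a protocol for differentiating CD4 T cells. The labels do not say which replicates came from separate animals, so p-values measure only the spread between these libraries.

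All 9 proteins are G protein-coupled receptors that signal mainly through inhibitory G proteins and steer a moving lymphocyte. CCR7 reads the chemokines CCL19 and CCL21 and takes naive T cells into lymph nodes, while S1PR1 reads sphingosine-1-phosphate in lymph and blood and takes them out. CXCR4 reads CXCL12 and holds cells in tissues that make it, GPR183 (EBI2) reads oxysterols at the edge of follicles and T-cell zones, and CXCR5, CXCR3, CCR6 and CCR9 lead activated or specialised cells to follicles, inflamed tissue, mucosa and gut.

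Counted fragments ran from 29041979 to 48808978 per library. The 9 receptor genes held 0.142% to 0.163% of them. Levels are given as TPM, the fragment count divided by exon length and scaled to a fixed library total, so that genes of different length can be compared. All 6 T-cell marker genes stood at 1 TPM or more in every library, with Cd4 at 923 to 1003 TPM, while Cd8a had 23 counts in all and Cd8b1 a mean of 42.9 TPM. The mature Th17 marker genes were low beside the T-cell marker genes, with a median of 1.33 against 887 TPM. Il23r had 8 counts in all 4 libraries. They were not low beside nuclear protein-coding genes, whose median was 0.355 TPM. Of the 6, 3 stood at 1 TPM in every library (Il17a, Il17f and Rora), near the share of 45.6% among protein-coding genes. Whether these levels are low for the label was not tested. The libraries differed in sex-linked transcripts: Xist stood at 224 and 215 TPM in replicates 1 and 2 and at 0.294 and 0.445 TPM in replicates 3 and 4, whereas the Y-linked gene Ddx3y stood at 0.439 and 0.658 TPM in replicates 1 and 2 and at 97.2 and 139 TPM in replicates 3 and 4. Libraries with such opposite levels do not all hold cells of a single animal, although the labels give a single donor record. Pairs of libraries differed by far more than counting noise, with a chi-square of 9.60 to 30.1 per degree of freedom, so each was kept as 1 replicate.

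The 9 receptor genes formed a high and a low class with nothing between. Ccr7, S1pr1, Cxcr4, S1pr4 and Gpr183, which act on resting T cells, stood at means of 96.1 to 865 TPM. Cxcr5, Ccr9, Cxcr3 and Ccr6, the receptors of follicular, gut-homing and effector cells, stood at means of 0.229 to 2.17 TPM. The lowest value in the high class, 91.7 TPM for Gpr183 in replicate 1, lay far above the highest value in the low class, 2.39 TPM for Cxcr5 in replicate 4. In all, 7 of the 9 genes reached 1 TPM in every library, against 45.6% of the 21764 protein-coding genes, and the median of the 9 was 96.1 TPM against 0.355 TPM for nuclear protein-coding genes.

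**Figure D1:**
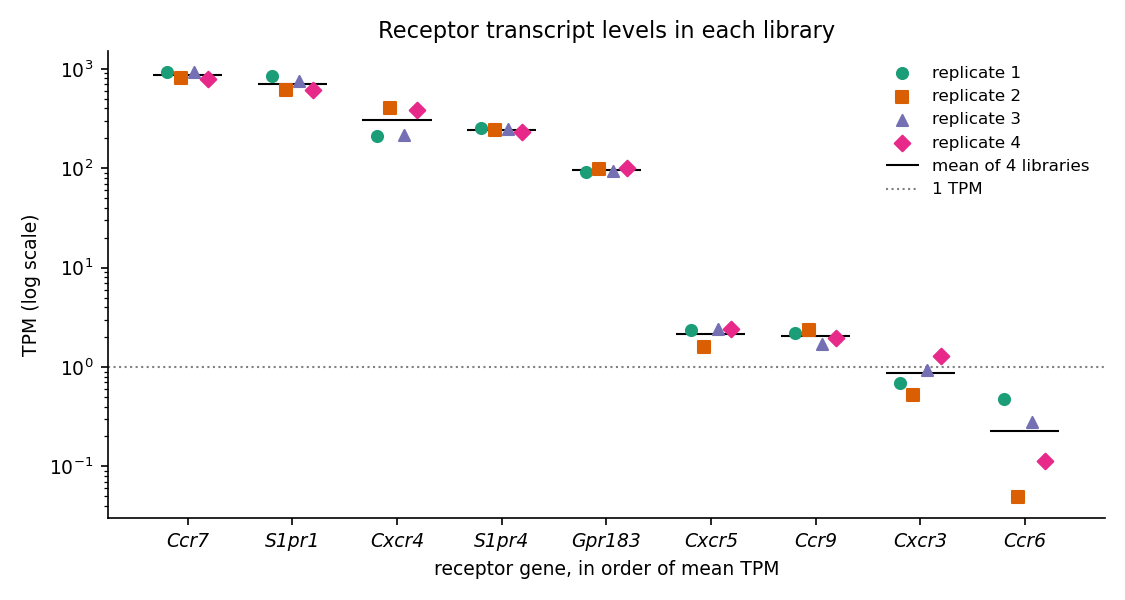
TPM on a log axis for each receptor gene, with 1 point per library and a bar at the mean of 4 libraries; the dotted line marks 1 TPM. The 5 high genes sit between 91.7 and 929 TPM and the other genes between 0.0497 and 2.39 TPM, and Cxcr4 is the high gene whose libraries lie farthest apart.

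Ccr7, the receptor for entry into the T-cell zone (ENSMUSG00000037944, mm10 chromosome 11, 99144196 to 99155077, minus strand), was the most abundant of the 9. It stood at 929, 815, 924 and 793 TPM in replicates 1 to 4, from 15306, 16002, 25981 and 20273 counts. Its level was above that of 99.5% of nuclear protein-coding genes. Replicates 1 and 3 were the higher libraries, and the highest was 1.17-fold above the lowest. This spread did not pass edgeR's test of excess variability (adjusted p = 0.995), which asks whether a gene varied between the 4 libraries more than the trend for genes of its abundance.

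S1pr1, the receptor for egress (ENSMUSG00000045092, chromosome 3, 115710433 to 115715072, minus strand), followed at 837, 613, 758 and 608 TPM. It had the same high libraries as Ccr7, replicates 1 and 3, with a wider spread of 1.38-fold from lowest to highest. Its quasi-dispersion was above that of 98.3% of genes tested, but edgeR's adjusted p was 0.562. Only with no filter on low counts was it called (edgeR adjusted p = 0.00421). In each library Ccr7 exceeded S1pr1, by a log2 ratio of 0.31 ± 0.12 (SD, n = 4), although the ranges of the 2 genes over the libraries overlapped.

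S1pr4, a second sphingosine-1-phosphate receptor, found mainly on lymphocytes and other blood cells (ENSMUSG00000044199, chromosome 10, 81497747 to 81500132, minus strand), stood at 253, 244, 249 and 234 TPM. This was the steadiest of the 9 genes, with a coefficient of variation of 3.43%. Gpr183 (ENSMUSG00000051212, chromosome 14, 121952331 to 121965193, minus strand) stood at 91.7, 98.5, 94.2 and 100.1 TPM, and its coefficient of variation was 4.01%. The spread of neither gene passed edgeR's test (adjusted p = 0.995 for each).

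Cxcr4, the receptor for retention (ENSMUSG00000045382, chromosome 1, 128588199 to 128592293, minus strand), varied most between libraries among the 5 high receptor genes. It stood at 209, 404, 216 and 388 TPM in replicates 1 to 4, from 3146, 7255, 5544 and 9060 counts. Replicates 2 and 4 were high and lay close together, replicates 1 and 3 were low and lay close together, and the highest was 1.93-fold above the lowest. Of the 9 genes 8 passed the filter on low counts, and Cxcr4 was the 1 called excess variable (edgeR adjusted p = 0.0368 over 12464 genes), against 0.193% of all genes tested. Without replicate 1, 2 or 3 the edgeR adjusted p was 0.0547, 0.0902 or 0.123 and the call ended, whereas without replicate 4 it was 2.85e-06, while the SD of log2 CPM stayed between 0.49 and 0.54 in each case. The call also ended with nuclear protein-coding genes alone (edgeR adjusted p = 0.0731), with a mean CPM of 5 or more (0.116) and with a fit that was not robust (0.119), and it held with DESeq2 size factors (0.0373) and with no filter on low counts (4.70e-24). In bulk RNA, fewer cells that express a gene and less RNA per cell cannot be told apart.

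**Figure D2:**
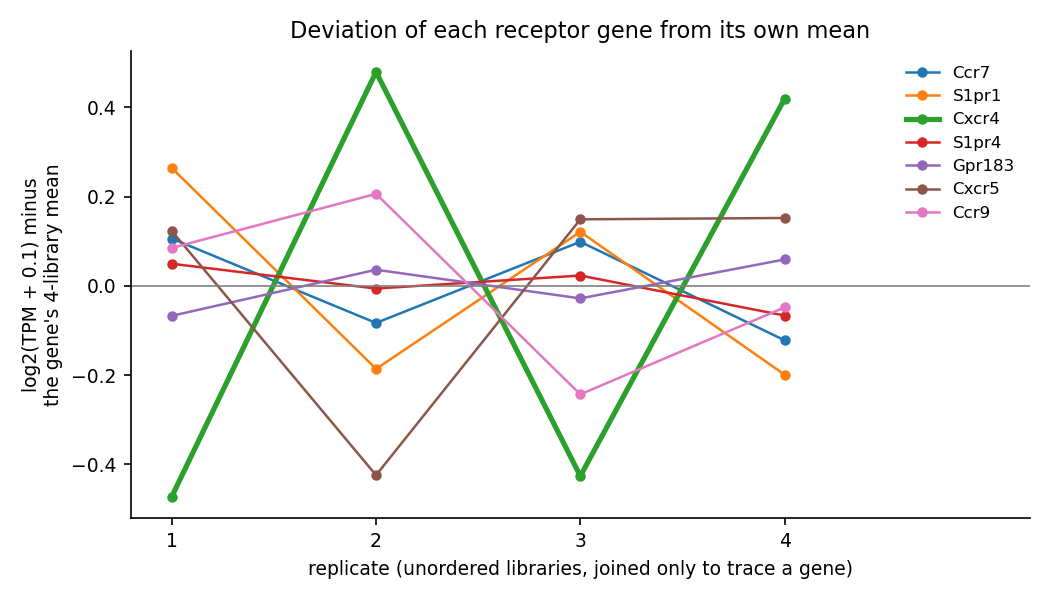
Each line traces 1 receptor gene with a mean of 1 TPM or more, as the difference of log2(TPM + 0.1) in a library from the gene's mean over the 4 libraries. Cxcr4 lies above its mean in replicates 2 and 4 and below it in replicates 1 and 3, while S1pr1 and Ccr7 lie on the other side of theirs in each library and S1pr4 stays near 0.

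Ratios of RNA levels to Cxcr4 largely restate its own spread and are no separate result. The ratio of S1pr1 to Cxcr4 in TPM was 4.01, 1.52, 3.52 and 1.57 in replicates 1 to 4, and the ratio of Ccr7 to Cxcr4 was 4.45, 2.02, 4.28 and 2.05. The ratio of S1pr1 to Ccr7 varied less, at 0.901, 0.753, 0.821 and 0.766. All of these ratios were chosen for this comparison after the values had been seen. How far these ratios differed between libraries was not tested.

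Other measures stood high or low in the same libraries. Cd69, whose protein binds S1PR1 and removes it from the cell surface, was at 54.8, 79.7, 45.4 and 65.3 TPM, also highest in replicates 2 and 4, and did not pass edgeR's test (adjusted p = 0.189). Foxo1, whose protein drives Ccr7 and, through KLF2, S1pr1, was at 227, 190, 235 and 168 TPM, lowest in replicates 2 and 4 (edgeR adjusted p = 0.578). Klf2 itself was at 445, 459, 489 and 461 TPM and did not follow that pattern. The heat shock gene Hsph1, named because it was already known to vary here, was at 26, 65.4, 33 and 195 TPM, also highest in replicates 4 and 2. The 24 genes called included other heat shock or co-chaperone genes, among them Stip1, Hsp90aa1, Dnaja1, Dnajb1 and Hspa8, also named after their values were seen. Their part in the Cxcr4 result was not tested. The Cxcr4 pattern crossed that of the sex-linked transcripts: replicates 1 and 2, alike in Xist, differed in Cxcr4 by 209 against 404 TPM, and replicates 3 and 4, alike in Ddx3y, by 216 against 388 TPM.

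**Figure D3:**
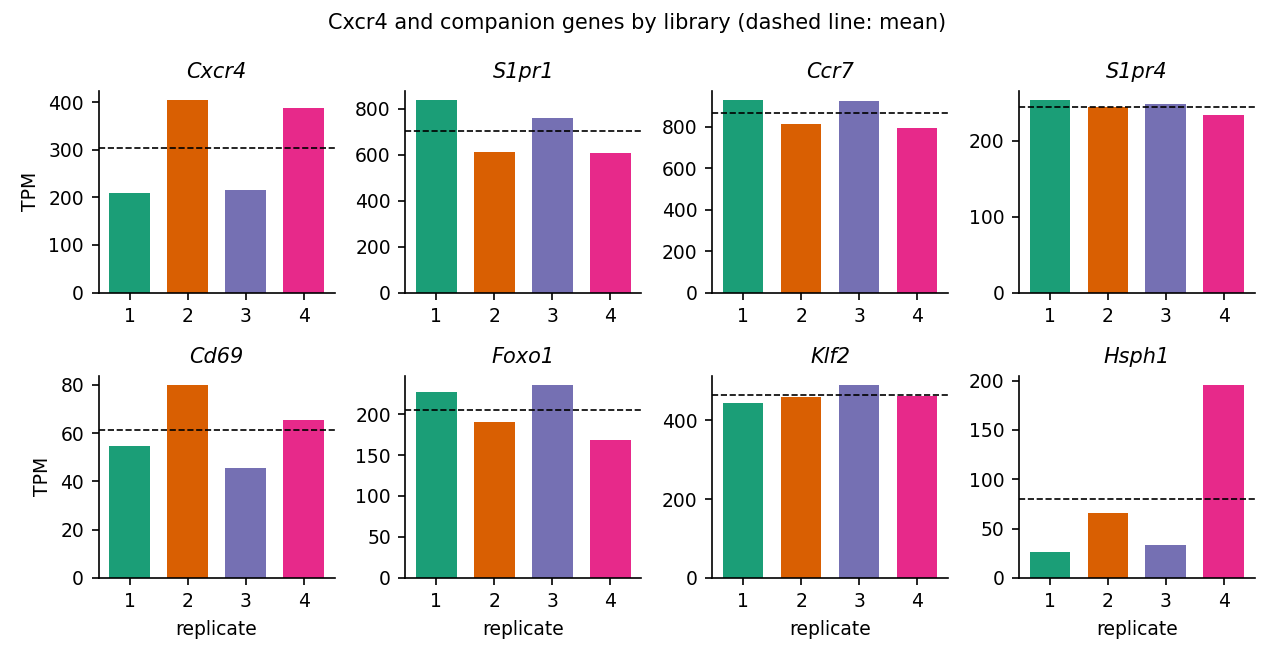
TPM in each of the 4 libraries for Cxcr4, the receptor genes S1pr1, Ccr7 and S1pr4, and the companion genes Cd69, Foxo1, Klf2 and Hsph1, with the mean as a dashed line and axes from 0. Cxcr4 and Cd69 are tallest in replicates 2 and 4, S1pr1, Ccr7 and Foxo1 in replicates 1 and 3, and Hsph1 at 195 TPM in replicate 4.

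Among 7959 other nuclear protein-coding genes with a mean of 10 TPM or more, the 5 whose deviations over the 4 libraries lay nearest to those of Cxcr4 were Ube2s, 1700102P08Rik, Pde3b, Fkbp5 and Il7r. Nearness was the root-mean-square difference between log2 deviations, which was 0.037 for Ube2s and 0.16 for Il7r. Ube2s stood at 10.3, 19.2, 11.0 and 19.4 TPM. Il7r, the receptor gene for a survival cytokine of resting T cells, stood at 632, 972, 654 and 956 TPM. With 4 libraries many genes can share a pattern, and without replicate 1 or 2 only 2 or 1 of these 5 genes remained among the nearest.

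The sequence just before the start of Cxcr4 is shown beside that of S1pr4, its neighbour in level. The former gene was called excess variable in the main setting and the latter was not. Both are 250 bases from RefSeq on GRCm38.p6, minus strand, written 5′ to 3′ and ending at the base before the RefSeq transcript start. That start lies a few bases upstream of the gene boundary given above, 128592293 for Cxcr4 and 81500132 for S1pr4. Motif distances are counted from the RefSeq start. Capitals mark the GC box GGGCGG, the TATA motif TATAAA and GAANNTTC, a pair of inverted units of the kind from which heat shock elements are built, on either strand. These motifs were chosen after the values had been seen. The first window lies at chr1:128592300-128592549 and the second at chr10:81500138-81500387.
Cxcr4: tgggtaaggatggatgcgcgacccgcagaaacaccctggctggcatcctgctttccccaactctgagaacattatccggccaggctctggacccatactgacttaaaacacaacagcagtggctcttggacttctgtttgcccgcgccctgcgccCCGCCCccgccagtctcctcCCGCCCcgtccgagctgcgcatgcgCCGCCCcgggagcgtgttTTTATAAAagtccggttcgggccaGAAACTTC
S1pr4: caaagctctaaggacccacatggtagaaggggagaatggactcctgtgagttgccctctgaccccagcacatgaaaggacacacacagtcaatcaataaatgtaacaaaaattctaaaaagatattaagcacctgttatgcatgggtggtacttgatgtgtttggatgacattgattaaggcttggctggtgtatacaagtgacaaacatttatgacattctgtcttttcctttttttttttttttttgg
The Cxcr4 window held 3 matches to GGGCGG, beginning 95, 75 and 50 bases before the start, 2 overlapping matches to TATAAA, beginning 32 and 30 bases before it, and 1 match to GAANNTTC over the last 8 bases. The S1pr4 window held 0 matches to each. Of 32851 windows of this length in the same table, 32.7% held GGGCGG, 12.4% TATAAA and 6.69% GAANNTTC. The Cxcr4 window held 19 CpG dinucleotides, a number that 19.7% of all windows reached, against 0 in S1pr4 and a median of 6. The table held 7 windows for 6 of the 9 genes, and the other windows, for Ccr9, Gpr183, Cxcr3 and Ccr6, held 1 to 7 CpG dinucleotides and 0 matches to these motifs. A match is a run of letters and says nothing of whether a factor binds there.

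Cxcr5, the follicle-homing receptor (ENSMUSG00000047880, chromosome 9, 44511787 to 44561877, minus strand), stood at 2.34, 1.57, 2.39 and 2.39 TPM from 65, 52, 113 and 103 counts. Replicate 2 was the low library, at 1.57 TPM with an exact 95% Poisson interval of 1.17 to 2.06, which overlaps that of each other library. Ccr9, the receptor for homing to thymus and small intestine (ENSMUSG00000029530, chromosome 9, 123678439 to 123784330, plus strand), stood at 2.18, 2.38, 1.71 and 1.98 TPM from 186, 242, 250 and 262 counts. Replicate 3 was the low library, and its interval of 1.51 to 1.94 TPM did not overlap that of replicate 2, at 2.09 to 2.69 TPM. The level of Ccr9 depends on the gene model, since the union of its exons is 10260 bases long and its longest transcript 5197, which moved its mean from 2.06 to 3.24 TPM. Its exons also share 1932 bases with AC165425.1 on the opposite strand, at 2.92 TPM, and the strand-specific counting assigns such fragments by strand. A further 269 bases are shared with Gm17200 on the same strand, at 0 TPM, and counting by strand cannot separate these. Cxcr5 shares 110 exonic bases with the more abundant Bcl9l on the opposite strand, at 131.6 TPM.

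Cxcr3, the receptor of Th1 and other effector cells (ENSMUSG00000050232, chromosome X, 101731535 to 101734269, minus strand), stood at 0.694, 0.524, 0.935 and 1.30 TPM from 10, 9, 23 and 29 counts. The higher values were those of replicates 3 and 4, the libraries with Ddx3y, but the Poisson intervals of replicates 1 and 4, at 0.333 to 1.28 and 0.868 to 1.86 TPM, overlapped. Ccr6, the receptor that marks Th17 cells and reads CCL20 (ENSMUSG00000040899, chromosome 17, 8236043 to 8257127, plus strand), rested on 8, 1, 8 and 3 counts. These correspond to 0.474, 0.0497, 0.278 and 0.114 TPM, and the mean of 0.229 TPM was 0.147 TPM without replicate 1. Its 20 counts in all left it below the filter for the test of spread. The highest Poisson limit in any library was 0.933 TPM, so these libraries place Ccr6 below 1 TPM within counting error. The intervals cover counting error only. For Cxcr5, Ccr9 and Cxcr3 edgeR's adjusted p was 0.995 each.

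**Figure D4:**
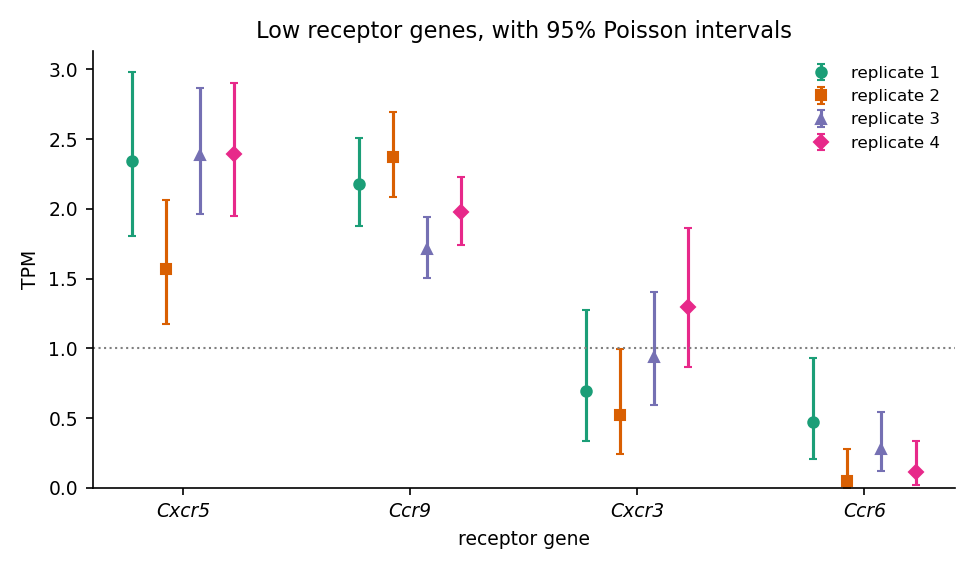
TPM of the 4 low receptor genes in each library with exact 95% Poisson intervals; the dotted line marks 1 TPM. Within a gene the intervals overlap between libraries, except those of Ccr9 in replicates 2 and 3, and every Ccr6 interval ends below 1 TPM.

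Neighbours in the order of mean level were compared within each library. The order Ccr7, S1pr1, Cxcr4, S1pr4, Gpr183, Cxcr5, Ccr9, Cxcr3 and Ccr6 gives 8 neighbouring pairs, of which 6 kept their order in 4 of 4 libraries. Since the order came from the same means, it fixed the direction of each mean difference, and no pair could reach an exact p below 0.125. The widest step was from Gpr183 to Cxcr5, a log2 ratio of 5.42 ± 0.31 (SD, n = 4), with 0.1 TPM added to each level. S1pr1 over Cxcr4 was 1.27 ± 0.75, S1pr4 over Gpr183 was 1.35 ± 0.11, Ccr9 over Cxcr3 was 1.22 ± 0.65 and Cxcr3 over Ccr6 was 1.67 ± 0.95. With 1 TPM added, the last 2 ratios were 0.73 and 0.59, and with none added they were 1.33 and 2.30. For these 6 pairs the exact two-sided sign-flip permutation test gave p = 0.125, the smallest that 4 libraries allow, and an adjusted p of 0.167 over the 8 pairs. Cxcr4 over S1pr4 was 0.24 ± 0.56 and changed sign between libraries, with S1pr4 higher in replicates 1 and 3 and Cxcr4 higher in replicates 2 and 4 (exact adjusted p = 0.571). Cxcr5 over Ccr9 was 0.06 ± 0.44 and positive in 3 of 4 libraries (exact adjusted p = 0.875). In each of these last 2 pairs the mean log2 ratio was smaller than its SD. With 4 libraries the test could not have shown a difference, so it does not show that the genes were equal.

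Most ligand genes of these receptors had no counts in the same libraries. Ccl25, for the ligand of CCR9, was the exception at 1 TPM in every library, with 2.15 to 3.16 TPM. Of 10 ligand genes 7 had 0 counts in every library: Ccl19, Ccl21a and Ccl21b for CCR7, Cxcl12 for CXCR4, Cxcl9 and Cxcl11 for CXCR3, and Cxcl13 for CXCR5. Over all 21751 nuclear protein-coding genes, 7834 had 0 counts. Cxcl11 is annotated as a polymorphic pseudogene. A count of 0 allows up to 3 counts, which is 0.0258 to 0.044 TPM for the long Cxcl12 transcript and 0.243 to 0.415 TPM for Ccl19. Ccl21a and Ccl21b are near-identical copies whose shared fragments the counting may have left out, so their 0 counts are uncertain. The genes Ch25h and Cyp7b1, for the enzymes that make the oxysterol ligand of GPR183, also had 0 counts, while Hsd3b7, for the enzyme that inactivates it, stood at 2.47 ± 0.369 TPM (SD, n = 4). Cyp27a1, the remaining gene of these 4, had 4 counts.

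Beside S1pr1 and S1pr4, the sphingosine-1-phosphate axis was represented by its intracellular enzymes and by the regulators Klf2 and Cd69. Of 14 genes on that list, which leaves out S1pr1 and S1pr4, 7 reached 1 TPM in every library, against 45.6% of protein-coding genes. Sphk2, a kinase that makes the lipid, was at 55.7 ± 3.94 TPM, Sgpl1, the lyase that destroys it, at 55.7 ± 3.46 TPM and Sgpp1, a phosphatase, at 68.1 ± 2.52 TPM (n = 4 each). The second kinase gene, Sphk1, had 1 count in all, and Spns2, for the exporter of endothelial cells, had 4, whereas Mfsd2b, for the exporter of red blood cells, stood at 1.35 to 1.59 TPM. S1pr2, whose product confines cells and opposes migration, was at 3.33 ± 0.359 TPM, whereas S1pr5 had 2 counts and S1pr3 had 3.

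Genes for the signalling machinery shared by these receptors were abundant. Of 18 listed genes 17 reached 1 TPM in every library, against 45.6% of protein-coding genes, with a median of 219 TPM. The Rac GTPase gene Rac2 was at 1339 ± 9.41 TPM, the receptor kinase genes Grk6 and Grk2 at 828 ± 31.9 and 653 ± 29.3 TPM, and the integrin-activating GTPase gene Rap1b at 621 ± 23.2 TPM (n = 4 each). The inhibitory G protein gene Gnai2 was at 560.0 ± 12.0 TPM. Among adhesion genes that act with CCR7 at the vessel wall, 8 of 11 reached 1 TPM in every library, with Itgb7 at 1183 ± 47.8, Itgb2 at 739 ± 50.2 and Selplg at 446 ± 14.7 TPM (n = 4 each).

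The other chemokine receptor genes were low. Of 18, 4 reached 1 TPM in every library, against 45.6% of protein-coding genes. These were Cxcr1, Ccr8, Cxcr6 and Ccr4, at 4.11, 3.81, 1.39 and 1.34 TPM on average. The 7 with 0 counts were a share near that of nuclear protein-coding genes, 7834 of 21751. The sum of the 18 was 10.5 to 12.1 TPM per library, against 2128 to 2326 TPM for the 9 receptor genes. Among regulators of the 9 genes, 7 of 9 reached 1 TPM in every library. Foxp1, for a factor of resting T cells, was at 94.5 ± 2.61 and Batf, for a factor of activated T cells, at 85.4 ± 10.2 TPM (SD, n = 4). Rara, for the retinoic acid receptor that induces CCR9, was at 72.2 ± 3.15 and Bcl6, the follicular helper factor, at 12.7 ± 0.822 TPM, whereas Tbx21, the factor that drives Cxcr3, was at 0.518 ± 0.193 TPM and Ascl2, which can induce Cxcr5, had 0 counts. Of the 83 genes on these lists 44 were tested for excess variability and 0 were called by edgeR. At an unadjusted p below 0.05 edgeR gave 3 of the 44, Cd69, Foxo1 and Rasgrp2, against 665 of all 12464 genes tested, a share near the background. DESeq2 marked 1 of the 44, Cd69, as a dispersion outlier, against 108 of the 12464.

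Markers of other cells that carry these receptors were scarce. No list below had a gene at 1 TPM across the 4 libraries. The 8 B-cell genes summed to 2.51 to 3.84 TPM. Cd79b and Cd79a were the highest of them, at means of 1.455 and 1.371 TPM from 94 counts each, while Cr2 had 0 counts. Ms4a1, which encodes the B-cell surface protein CD20, had 6 counts. The 7 dendritic-cell genes summed to 1.99 to 2.48 TPM with Xcr1 at 0 counts, the 5 monocyte or macrophage genes to 0.031 to 1.07 TPM with Cd14 and Fcgr1 at 0, the 5 granulocyte genes to at most 0.560 TPM with Ly6g at 0, the 5 NK-cell genes to 1.22 to 2.68 TPM and the 5 stromal or endothelial genes to 0.666 to 1.32 TPM with Pdgfra and Kdr at 0. The highest means in these other lists were 1.265 TPM for Gzma, 0.93 for H2-Aa, 0.44 for Pdpn, 0.28 for Lyz2 and 0.22 for S100a9. The summed levels of all these lists in any library were below that of each of the 5 high receptor genes. For the low receptor genes they were of the same order, and their part in those levels was not tested.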

How the data were processed

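Per the file headers, the authors ran featureCounts 1.4.6-p4 over GENCODE M13 exons, counting read pairs whose ends both mapped, on the reverse strand, and the deposited values are raw counts, 1 library per file. The assembly is mm10, per the labels. No source used here gives the aligner's version. The labels name the assay total RNA-seq, but the library protocol they link is titled for poly(A)+ RNA. The deposited tables also give the union exon length, from which TPM was computed here. Gene IDs were given symbols from GENCODE M21, which covered 50376 of 50600 rows, and the rest stayed in the totals.

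Spread between libraries was tested with edgeR 4.0.16 in R 4.3.3 (intercept-only design, TMM, filterByExpr, robust quasi-likelihood fit, one-sided F test of the quasi-dispersion against the prior trend, Benjamini-Hochberg over all genes tested, adjusted p below 0.05), and the procedure was tested on simulated data. DESeq2 1.42.0 gave an alternative. Other steps used Python 3.11.15, numpy 2.4.6, pandas 2.3.3 and scipy 1.17.1. Log2 ratios used 0.1 TPM as pseudocount. The members, lists and tests were chosen with earlier results of these data known. The text names all members, up to 4 genes of each list by mean TPM, the 5 genes nearest to Cxcr4 in pattern, and genes at 0 counts or otherwise singled out after their values were seen. Some genes that this rule takes are not reported here. Text listings of files were not used. Alternatives covered normalization, filters, thresholds, gene length, pseudocounts and leaving out each library.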

Additional observations from a re-analysis of the deposited data

Results flagged for a closer look

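In 3 of 38 named genes with reads, 1 library stood far from the other libraries, with a gap to its nearest neighbour that took up most of the gene's range over the 4 libraries (0.940 of it for Cxcr5, 0.890 for Itgb7 and 0.901 for Batf). Chance alone gives about 1 such gene in 20. Cxcr5, the follicle-homing receptor gene, was low in replicate 2 at 1.57 TPM, from 52 counts, while the other libraries lay between 2.34 and 2.39 TPM. Itgb7, for the integrin beta chain of gut homing, was high in replicate 4 at 1254 TPM against 1154 to 1165 TPM. Batf, for a factor used by activated T cells, was high in replicate 4 at 101 TPM against 79.7 to 81.8 TPM. Cxcr4 did not stand out in this way, because its 4 values lay in close pairs.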

How the results depend on the processing

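The number of receptor genes at 1 TPM in every library was 7 and stayed at 7 when any replicate was left out. At 0.5, 2 and 5 TPM it was 8, 5 and 5. The summed level of the 9 genes was 2220 TPM, 2184 to 2250 TPM without single replicates, 2528 TPM over nuclear protein-coding genes alone and 1776 TPM with longest transcripts. The last scale lowered most receptor genes alike but raised Ccr9 to 3.24 TPM, above Cxcr5 at 2.03 TPM. Cxcr5 over Ccr9 was 0.06 on the log2 scale and ranged from -0.067 to 0.27 without single replicates, turning to -0.067 without replicate 3 and to -0.0036 without replicate 4, so the order of these 2 genes is not settled, and no other neighbouring pair changed its sign. The count of excess variable genes was 24 and ranged from 7 to 86 without single replicates; it was 349 with no filter, 10 with a mean CPM of 5 or more, 6 among nuclear protein-coding genes, 5 with a fit that was not robust and 108 as DESeq2 dispersion outliers, Cxcr4 among them. For Cxcr4 edgeR's adjusted p was 0.0368, between 2.85e-06 and 0.123 without single replicates, 0.116 with a mean CPM of 5 or more, 0.0731 among nuclear protein-coding genes and 0.119 without robust fitting, and the cause was not tested. Without single replicates 1 to 4 of the 5 genes nearest to Cxcr4 were found again. Counting error limits Cxcr3 and Ccr6, with 71 and 20 counts in all. No paired comparison of groups was possible because the labels give a single group.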

Other observations

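Ccl25, the gene for the thymic and intestinal chemokine that CCR9 reads, was the only 1 of the 10 listed ligand genes at 1 TPM or more in every library, at 3.16, 2.61, 2.15 and 2.76 TPM from 196, 193, 227 and 266 counts. Its mean was 2.67 TPM, and that of Ccr9 in the same libraries 2.06 TPM, or 3.24 TPM with the longest Ccr9 transcript. Whether the same cells held both RNAs was not tested. The exon model of Ccl25 is 7445 bases long, and which of its exons held the fragments was not analysed here. Ccl20, the ligand gene for CCR6, had 11, 5, 15 and 13 counts, and Cxcl10, a ligand gene for CXCR3, had 3, 3, 2 and 6.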
